A study of Saccharomyces cerevisiae with 12 samples.

Results

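The genes described here encode the proteins of the mitochondrial ribosome of the budding yeast Saccharomyces cerevisiae. They were chosen by name: gene symbols that consist of MRPL, MRPS, MRP or RSM and a number, without MRP8. This gave 65 of the 7112 features of the deposited table. Of these, 37 belong to the large and 28 to the small ribosomal subunit, RSM22 included. Counterparts of bacterial ribosomal proteins make up 40 of the 65, a further 24 occur only in mitochondrial ribosomes, and RSM22 encodes a methyltransferase-like assembly factor of the small subunit that is not part of the ribosome structure.

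Poly(A) RNA was measured in the prototrophic MATa strain CGY41.30, called WT here, and in CGY41.34, in which SIS2 is replaced by kanMX, called sis2Δ here. SIS2 encodes an inhibitor of the protein phosphatase Ppz1, which acts on potassium uptake. Both strains were saturated overnight in complete synthetic medium with glucose and standard potassium. They were then diluted in triplicate into medium with 7.35 mM (standard) or 0.5 mM (low) KCl, for which the study describes a potassium-free base, and grown exponentially to the next day. The 12 libraries form 4 groups of 3, and each genotype is represented by 1 strain.

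The libraries held between 35451323 and 46543107 counts, and the biological coefficient of variation over all genes was 5.70%. SIS2 had 3119.5 to 3807.5 counts in the WT libraries and 39.5 to 88.5 in those of sis2Δ, in accord with the genotype label of each. No gene was set as a check of the potassium labels. The MATa genes STE2 and BAR1 had at least 13329.5 counts in every library, while the alpha-factor gene MF(ALPHA)1 had 12 to 115.5 and the MATalpha receptor gene STE3 had 392.5 to 881.5. The MATa genes MFA1 and MFA2 had at least 5868.33 and 15396.5 counts. The MATalpha genes MF(ALPHA)2 and SAG1 had 166 to 247.5 and 1174 to 1904. All 65 genes passed the low-count filter and were among the 6691 genes tested. Values are given as CPM (counts relative to the total of their library, with TMM scaling), and a gene is called higher or lower where the p-value of edgeR's quasi-likelihood test, adjusted over all 6691 genes, is under 0.05.

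Mitochondrial ribosomes translate the few mRNAs of the mitochondrial genome, which encode core subunits of cytochrome c oxidase, of the cytochrome bc1 complex and of ATP synthase. Almost all of their proteins are encoded in the nucleus, made in the cytosol and imported, and are joined there by ribosomal RNAs of mitochondrial origin. In yeast, the mRNAs of these proteins are known targets of Puf3, an RNA-binding protein that recognises an 8-base element downstream of the coding sequence and promotes the decay of its targets in glucose medium.

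The letters bound by Puf3, TGTANATA on the sense strand of the gene, were present within the 300 bases after the stop codon in 64 of the 65 genes (98.5%). Over all 6008 nuclear protein-coding genes of the R64 annotation, 973 (16.2%) had them, and 15.3% did when the 65 genes were left out. Other genes of mitochondrial translation, taken as lists below, often carried the pattern as well. Of the tRNA synthetases and related enzymes 15 of 16 did, and of the translation activators 12 of 16. Among the genes for mitochondrial RNA and ribosome assembly 10 of 14 did, and among the translation factors 7 of 10. All 37 genes of the large subunit carried the pattern, and 27 of the 28 of the small subunit. The exception was RSM22, the assembly factor. A C placed 2 bases before the pattern is a letter known to strengthen Puf3 binding. It was found in 51 of the 65 genes (78.5%) and in 4.68% of all genes, most of which lack the pattern. The 16 synthetases and related enzymes had it in 12 cases (75%). Of the 909 other genes with the pattern, 230 had this C. The 65 genes held 81 patterns in total: 49 genes had 1, and 15 had 2 or more. MRPL19 and RSM19 had 3 each. The N in the pattern was A in 36 cases, T in 25, C in 18 and G in 2. A match of letters is a description and was not tested for binding.

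The windows below are from the RefSeq genome (build R64), written 5′ to 3′ on the sense strand with the pattern in capitals. They belong to the genes on which the expression results turn: the members with the highest fold changes in low potassium, 1 that fell there, those with the highest fold changes in sis2Δ, and the member with the highest level.
MRPL25 (chrVII:637008-637037, minus strand): atgtctaatcaTGTAAATAattttgtgata
RSM19, pattern 1 of 3 (chrXIV:695024-695051, minus strand): gggatctagTGTATATAgatttctagat
RSM19, pattern 2 of 3 (chrXIV:694996-695025, minus strand): atgatatatcaTGTAAATAagatcaagcca
RSM19, pattern 3 of 3 (chrXIV:694968-694997, minus strand): cagactcgggcTGTATATAtatatatatat
MRPL44 (chrXIII:720854-720883, minus strand): acaagcaagccTGTAAATAatatatatgca
MRPL8 (chrX:315714-315743, minus strand): gtgtattccctTGTAAATAtatagatgaca
MRP21 (chrII:49401-49430, plus strand): atttccgtcttTGTAAATAggtaatgcgta
RSM7 (chrX:638192-638221, minus strand): gtaaacttgccTGTACATAaacacatttat
MRPS12, pattern 1 of 2 (chrXIV:694269-694298, minus strand): atacaacctttTGTAAATAgcaatgaccat
MRPL25, MRPL44, MRPL8, RSM7 and pattern 2 of RSM19 have the C 2 bases upstream, and MRP21, MRPS12 and the other patterns of RSM19 do not. MRPL8, whose transcript was lower in WT in low potassium, and MRPL25 and MRPL44, whose transcripts were higher, have the same 8 letters and the same C. These 3 genes were chosen by their fold changes. Values for all members with and without the C are given under the other observations.

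The position of the first pattern of each gene was also narrow. Its first base lay between 8 and 139 bases after the stop codon, with a median of 51. All 64 genes thus had a pattern within the first 150 bases. Further patterns of the same genes lay as far as 266 bases after the stop codon (MRPS12). Of the 909 other genes with the pattern, 77.4% had their first one within the first 150 bases, and its median position was 71.

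**Figure D1:**
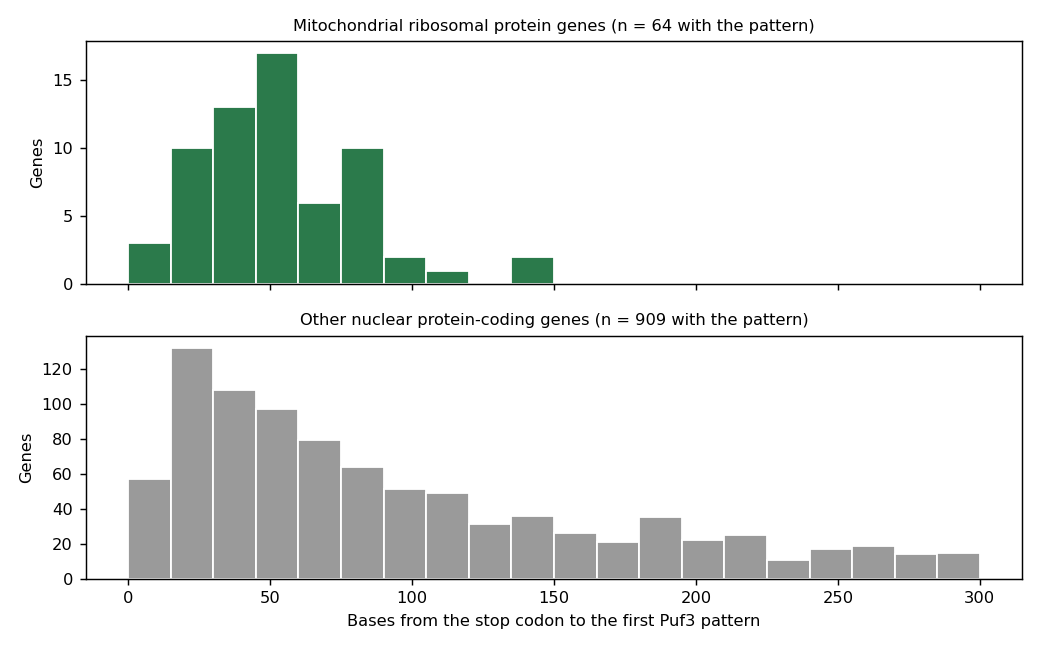
Number of genes (vertical axis) by the distance in bases from the stop codon to the first Puf3 pattern (horizontal axis), for the 64 mitochondrial ribosomal protein genes with the pattern (top) and the 909 other nuclear genes with it (bottom). The upper distribution ends at 139 bases, and the lower one reaches 293.

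Transcript levels of the family were compared per length, as CPM per 1000 bases of annotated coding sequence. In WT in 7.35 mM KCl the median of the 65 genes was 51.7, the middle 50% lay between 35.7 and 71.4, and the range was 14.7-fold. The large and small subunits had similar medians, 50.8 and 54.1. MRPS12, the counterpart of the bacterial decoding-centre protein S12, had the highest level per length with 213 ± 10.2 (SD, n = 3). It was followed by the large-subunit genes MRPL39 with 160 ± 19.01 and MRPL33 with 114 ± 10.8. In these 3 WT libraries MRPS12, MRPL39 and MRPL33 did not overlap with each other.

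At the lower end, RSM22 had a level per length of 14.5 ± 0.752, below the lowest library of every other member. RSM22 was thus both the gene without the Puf3 pattern and the gene with the lowest level of the 65. The next 2, RSM23 (27.7 ± 0.305), a relative of the human GTP-binding protein DAP3, and MRPS5 (28.8 ± 1.32), a counterpart of bacterial S5, overlapped. The order of the levels was alike in the 4 groups: Spearman's rho with WT in 7.35 mM KCl, given as a description over the 65 genes, was 0.970 for WT in 0.5 mM KCl, 0.986 for sis2Δ in 7.35 mM KCl and 0.963 for sis2Δ in 0.5 mM KCl.

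**Figure D2:**
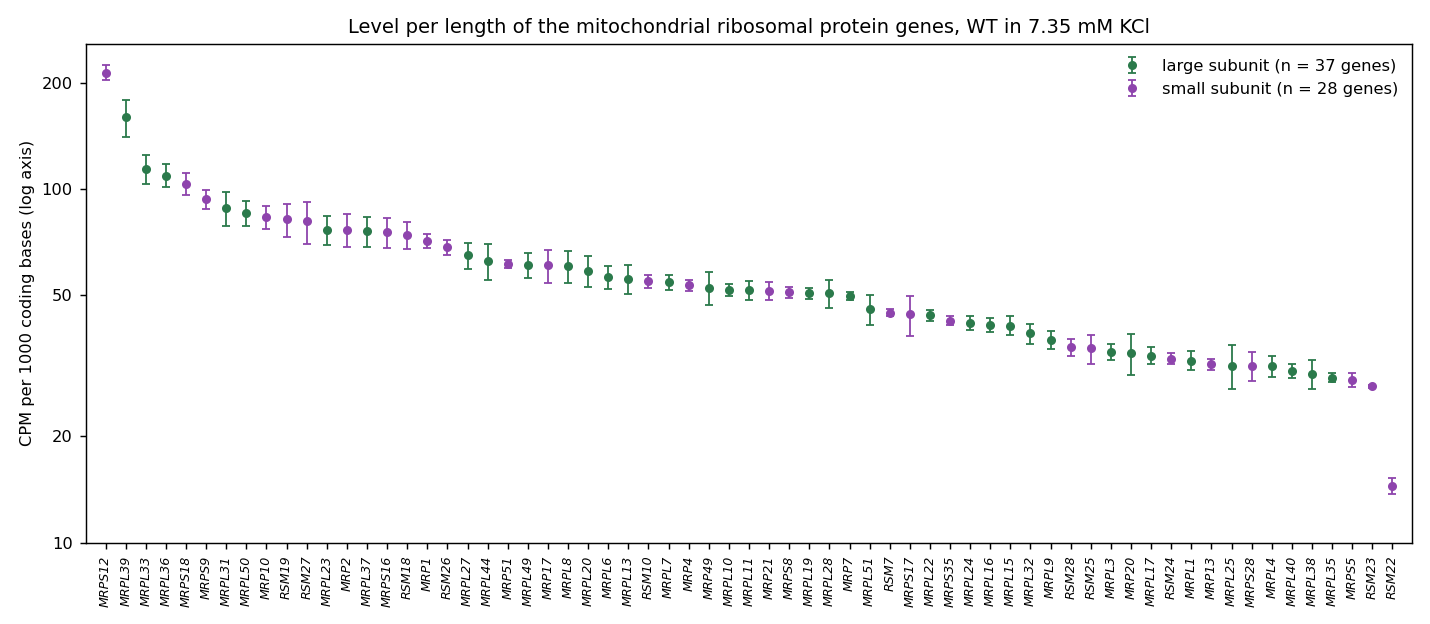
CPM per 1000 coding bases (log axis, mean and SD of 3 libraries) of the 65 genes in WT in 7.35 mM KCl, ordered by level and coloured by subunit. Levels run from 14.5 for RSM22 to 213 for MRPS12, with both subunits spread over the whole range.

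The transcripts of the 65 genes together made up 0.222 to 0.259% of all counts. Their summed level was 2321 ± 125 CPM (SD, n = 3) in WT in 7.35 mM KCl and 2423 ± 72.3 CPM in WT in 0.5 mM KCl. In sis2Δ it was 2451 ± 36.9 CPM in 7.35 mM KCl and 2560 ± 59.1 CPM in 0.5 mM KCl. The WT sums at both concentrations overlapped, and the 3 sums of sis2Δ in 0.5 mM KCl lay above those of all other libraries. The latter held with TMM scaling only: as a share of counts, sis2Δ replicate 1 in 0.5 mM KCl, at 0.244%, was below 2 WT libraries in 0.5 mM KCl (0.250 and 0.245%) and all 3 sis2Δ libraries in 7.35 mM KCl. WT replicate 2 in 7.35 mM KCl stood lowest, with a sum of 2178 CPM against 2376 and 2409 CPM in its group, and it held the lowest value of the group for 60 of the 65 genes. The cytosolic ribosomal protein genes had a median log2 difference of -0.09 in the same library, relative to the group's mean. In WT in 0.5 mM KCl, replicate 1 was the lowest for 43 of the 65 genes. Both comparisons with WT in 7.35 mM KCl and the interaction use that replicate 2, and values without it are given with them.

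**Figure D3:**
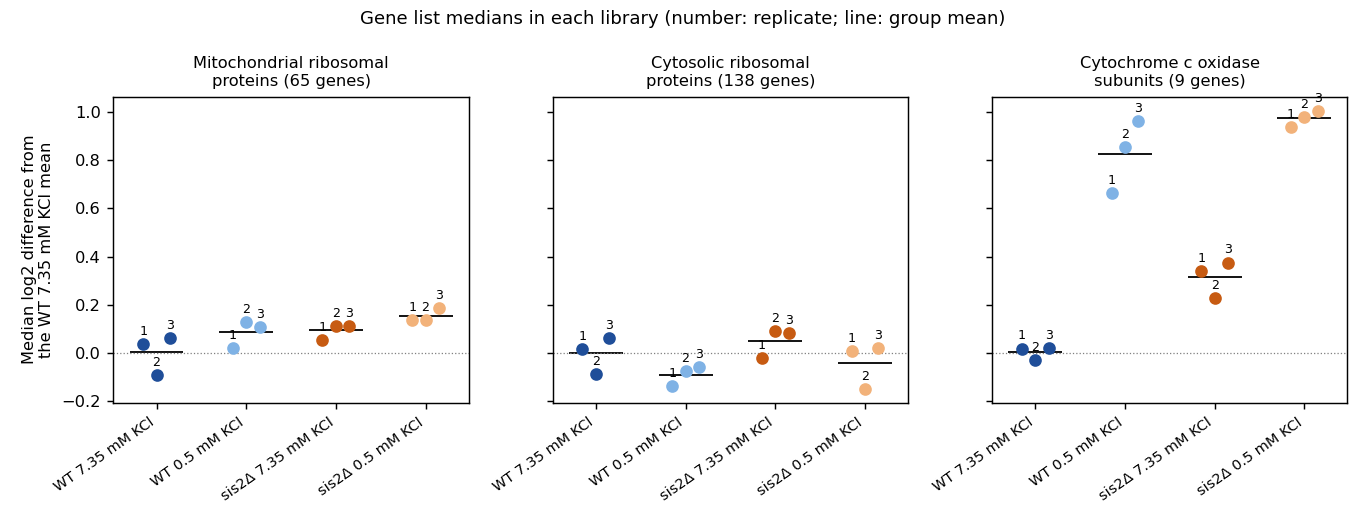
Median log2 difference of each library from the mean of WT in 7.35 mM KCl (vertical axis), for the 65 mitochondrial ribosomal protein genes, 138 cytosolic ribosomal protein genes and 9 cytochrome c oxidase subunit genes. Points are single libraries with their replicate number and lines are group means. The left panel spans -0.09 to 0.19, while the cytochrome c oxidase genes reach 0.67 to 1.01 in the low-potassium libraries.

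How low potassium changed the family was asked first in WT. In WT, 23 of the 65 genes were higher in 0.5 than in 7.35 mM KCl and 3 were lower, and 39 passed in neither direction. Over all 6691 genes, 24.1% were called higher and 23.2% lower. The median log2 fold change of the 65 genes was 0.08, a 1.06-fold difference, and 43 of 65 were above 0, while the median of all genes was 0.00. In the large subunit, 17 of 37 genes were higher and 3 lower. In the small subunit 6 of 28 were higher and none lower. Among the proteins with a bacterial counterpart, 14 of 40 were higher, and among the mitochondria-specific ones 9 of 24.

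MRPL25, which encodes a mitochondria-specific protein of the large subunit (chrVII:637104-637577), had the highest fold change. Its level was 14.2, 13.4 and 17.5 CPM in WT in 7.35 mM KCl and 20.9, 19.7 and 23.8 CPM in WT in 0.5 mM KCl. The groups did not overlap, and its log2 fold change was 0.52 (SE 0.0894, edgeR adjusted p = 6.4e-05). RSM19, the counterpart of bacterial S19 in the head of the small subunit (chrXIV:695052-695327), had 23.1, 20.1 and 24.8 CPM in standard and 25.3, 29.4 and 30.8 CPM in low potassium. Its log2 fold change was 0.33 (SE 0.0783, edgeR adjusted p = 0.00154), again without overlap. MRPL44, a mitochondria-specific protein and the only member with an intron in the annotation, had 18.05, 16.7 and 20.9 CPM in standard and 21.0, 22.8 and 24.96 CPM in low potassium. The highest standard and the lowest low-potassium library nearly touched, and the log2 fold change was 0.31 (SE 0.0785, edgeR adjusted p = 0.00294).

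The 3 genes that fell all encode large-subunit proteins with a bacterial counterpart: MRPL8 (L17), MRPL7 (L5) and MRPL11 (L10, part of the stalk base). MRPL8 had 42.7, 39.2 and 48.1 CPM in standard and 38.6, 36.7 and 36.7 CPM in low potassium, all below the standard libraries, and its log2 fold change was -0.21 (SE 0.0651, edgeR adjusted p = 0.0101). MRPL7 had a log2 fold change of -0.19 (SE 0.0634, edgeR adjusted p = 0.0175) and MRPL11 of -0.17 (SE 0.063, edgeR adjusted p = 0.0328). The libraries lay close together, and without WT replicate 3 in 7.35 mM KCl, 0 of the 3 passed.

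Without WT replicate 2 in 7.35 mM KCl, 12 genes were higher and 38 of 65 were above 0. Without WT replicate 3 in 0.5 mM KCl, 14 were higher. The shares over all genes in these runs are not given. The batch number in the labels equals the replicate number, and the median difference of the 65 genes was -0.01 in batch 1, 0.22 in batch 2 and 0.07 in batch 3. The shift thus had no common direction over the batches, and it was largest in the batch that holds the low library. Within the family, 12 genes stayed above the threshold with any 1 of the 12 libraries left out and in 7 other settings: MRPL1, MRPL24, MRPL25, MRPL32, MRPL35, MRPL38, MRPL39, MRPL40, MRPL44, MRPL49, MRPS5 and RSM19.

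In sis2Δ, 14 of the 65 genes were higher in 0.5 than in 7.35 mM KCl and 0 were lower (19 and 0 at an unadjusted p under 0.05 in edgeR, and 12 and 0 in DESeq2). Over all genes, 24.2% were called higher and 21.7% lower. The median log2 fold change was 0.08 and 47 of 65 were above 0. In the large subunit 9 of 37 genes were higher and in the small subunit 5 of 28.

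RSM19, MRPL44 and MRPL25 again had the highest fold changes. RSM19 had 25.5, 25.5 and 26.2 CPM in standard and 32.7, 30.9 and 34.7 CPM in low potassium, with no overlap and a log2 fold change of 0.35 (SE 0.0772, edgeR adjusted p = 9.2e-04). MRPL44 rose from 20.1, 19.5 and 19.8 CPM to 24.2, 23.9 and 26.3 CPM, a log2 fold change of 0.32 (SE 0.0779, edgeR adjusted p = 0.00185). MRPL25 rose from 17.5, 18.2 and 19.3 CPM to 21.2, 23.1 and 24.2 CPM, a log2 fold change of 0.32 (SE 0.0878, edgeR adjusted p = 0.00542). In all 3 genes every low-potassium library lay above every standard one. The lowest values, none past the threshold, were -0.13 for MRPS17 (S17), -0.11 for MRPL11 and -0.11 for RSM26, a mitochondria-specific protein of the small subunit.

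The median of the 65 genes in sis2Δ was 0.10, 0.05 and 0.09 in batches 1, 2 and 3. All were above 0, but that of batch 2 did not exceed the within-group spread (SD) of a library's median, 0.054. Without sis2Δ replicate 3 in 0.5 mM KCl, 7 genes were higher, and without sis2Δ replicate 1 in 7.35 mM KCl 8 were. With library totals in place of TMM 8 were. In every setting run, 6 stayed above the threshold: MRPL15, MRPL25, MRPL38, MRPL44, MRP20 and RSM19.

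The low-potassium comparisons of the 2 strains share no library. In both, 11 genes were higher: MRP20, MRPL1, MRPL15, MRPL24, MRPL25, MRPL38, MRPL44, MRPL49, MRPS5, RSM19 and RSM27. They are 47.8% of the 23 genes of WT and 78.6% of the 14 of sis2Δ. Over all genes tested, 1213 were higher in both strains, 75.2% of the 1612 of WT and 74.9% of the 1620 of sis2Δ. MRP20 and MRPL24 are counterparts of bacterial L23, at the exit of the peptide tunnel, and L28, MRPL1 and MRPL38 of L1 and L14, MRPL49 of L21, and MRPS5 of S5. MRPL15 and RSM27 are mitochondria-specific.

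**Figure D4:**
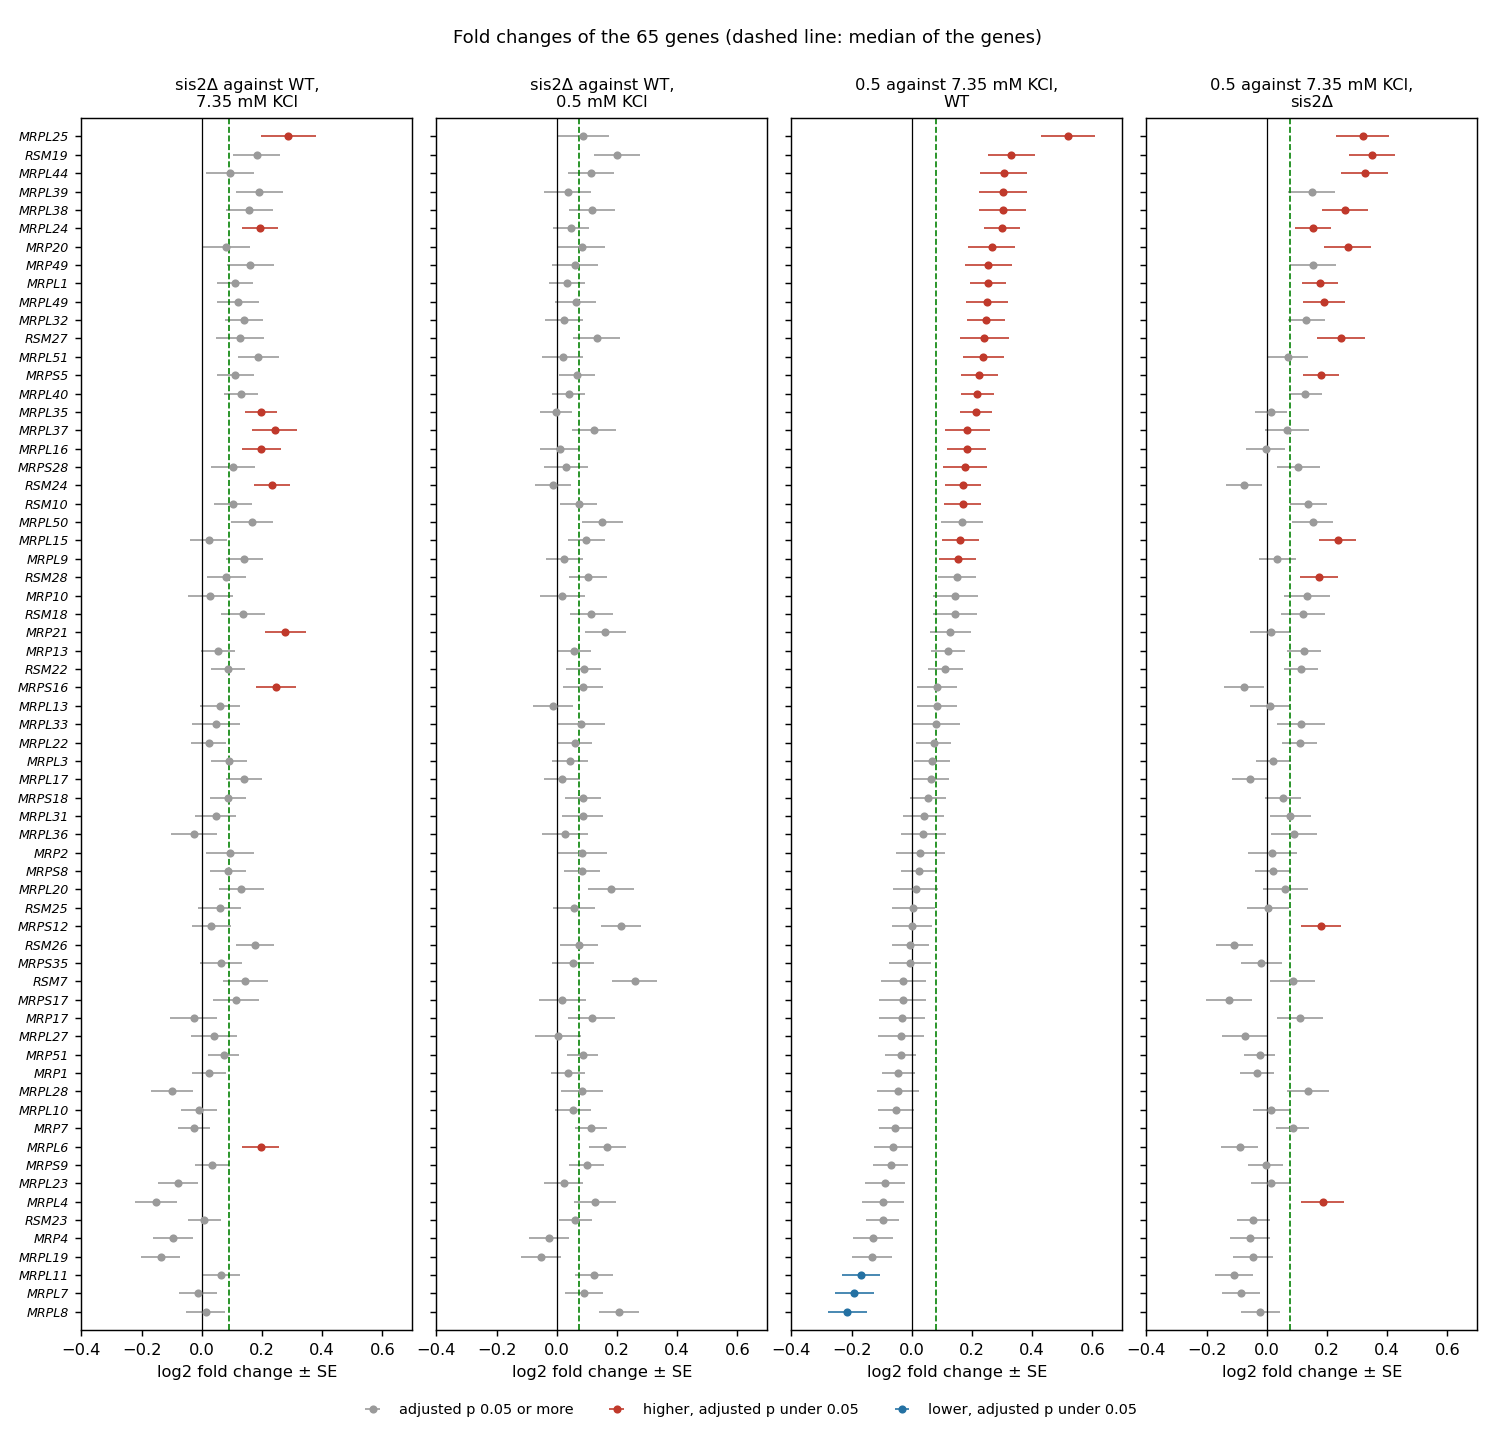
Log2 fold change with its SE (horizontal axis) of each of the 65 genes in 4 comparisons, in the same order of genes in all panels. Red points are called higher, blue lower and grey neither, and the dashed line is the median, 0.09, 0.07, 0.08 and 0.08 from left to right.

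Deletion of SIS2 was compared with WT at each concentration. In 7.35 mM KCl, 9 of the 65 genes were higher in sis2Δ and 0 lower (19 higher and 1 lower at an unadjusted p under 0.05 in edgeR, and 10 and 0 in DESeq2). Over all genes, 6.38% were called higher and 7.04% lower. The median log2 fold change was 0.09, and 55 of 65 genes were above 0. The 9 genes were MRPL6, MRPL16, MRPL24, MRPL25, MRPL35 and MRPL37 of the large and MRP21, MRPS16 and RSM24 of the small subunit.

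MRP21, the counterpart of bacterial S21 (chrII:48825-49358), had 28.2, 25.7 and 28.7 CPM in WT and 31.4, 35.7 and 33.2 CPM in sis2Δ. All sis2Δ libraries were above the WT ones, with a log2 fold change of 0.28 (SE 0.0684, edgeR adjusted p = 0.00964). MRPS16, of bacterial S16, had 27.6, 24.9 and 30.3 CPM in WT and 32.6, 31.6 and 34.1 CPM in sis2Δ, with no overlap and a log2 fold change of 0.25 (SE 0.0669, edgeR adjusted p = 0.0177). MRPL25 had the largest value, 0.29 (SE 0.0904, edgeR adjusted p = 0.0382), though its highest WT and lowest sis2Δ library were both at 17.5 CPM. The lowest values, none past the threshold, were -0.15 for MRPL4, -0.14 for MRPL19 and -0.10 for MRPL28. MRPL19, of the stalk base, overlaps YNL184C on the same strand by 113 bases, and reads there cannot be assigned to 1 of them.

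Without WT replicate 2, 0 of the 65 genes passed, and the median log2 fold change was 0.05. The 9 genes then had log2 fold changes between 0.16 (MRPL6) and 0.24 (MRP21), with edgeR adjusted p between 0.0528 and 0.171; RSM24 had 0.21 against 0.23 with all libraries, and MRPL35 0.19 against 0.20. Without sis2Δ replicate 2, 2 genes passed, without sis2Δ replicate 3, 3, and without WT replicate 1, 5. The shares over all genes in these runs are not given. The median was 0.03 in batch 1, 0.21 in batch 2 and 0.05 in batch 3. All were above 0, but those of batches 1 and 3 did not exceed the within-group spread (SD) of a library's median, 0.054. Batch 2 holds the low WT library.

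In 0.5 mM KCl, 0 of the 65 genes were called in either direction by edgeR, 9 were higher and 0 lower at an unadjusted p under 0.05, and DESeq2 also called 0. Over all genes, 1.2% were called higher and 0.583% lower. The median log2 fold change was 0.07 and 60 of 65 genes were above 0. RSM7, the counterpart of bacterial S7, had the highest value: 33.6, 32.2 and 32.1 CPM in WT and 39.5, 33.9 and 43.7 CPM in sis2Δ, with a log2 fold change of 0.26 (SE 0.0747, edgeR adjusted p = 0.0891). The sis2Δ libraries lay above the WT ones but were spread widely. MRPS12 had 95.9, 100.3 and 99.6 CPM in WT and 115, 102 and 127 CPM in sis2Δ, with a log2 fold change of 0.21 (SE 0.0662, edgeR adjusted p = 0.123). Without sis2Δ replicate 2, RSM7 and MRPS12 passed the threshold. MRPL8 had a value of 0.21 (SE 0.0653, edgeR adjusted p = 0.133). The lowest were MRPL19 at -0.05, MRP4 at -0.03 and MRPL13 at -0.01. The batch medians were 0.14, 0.02 and 0.08.

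**Figure D5:**
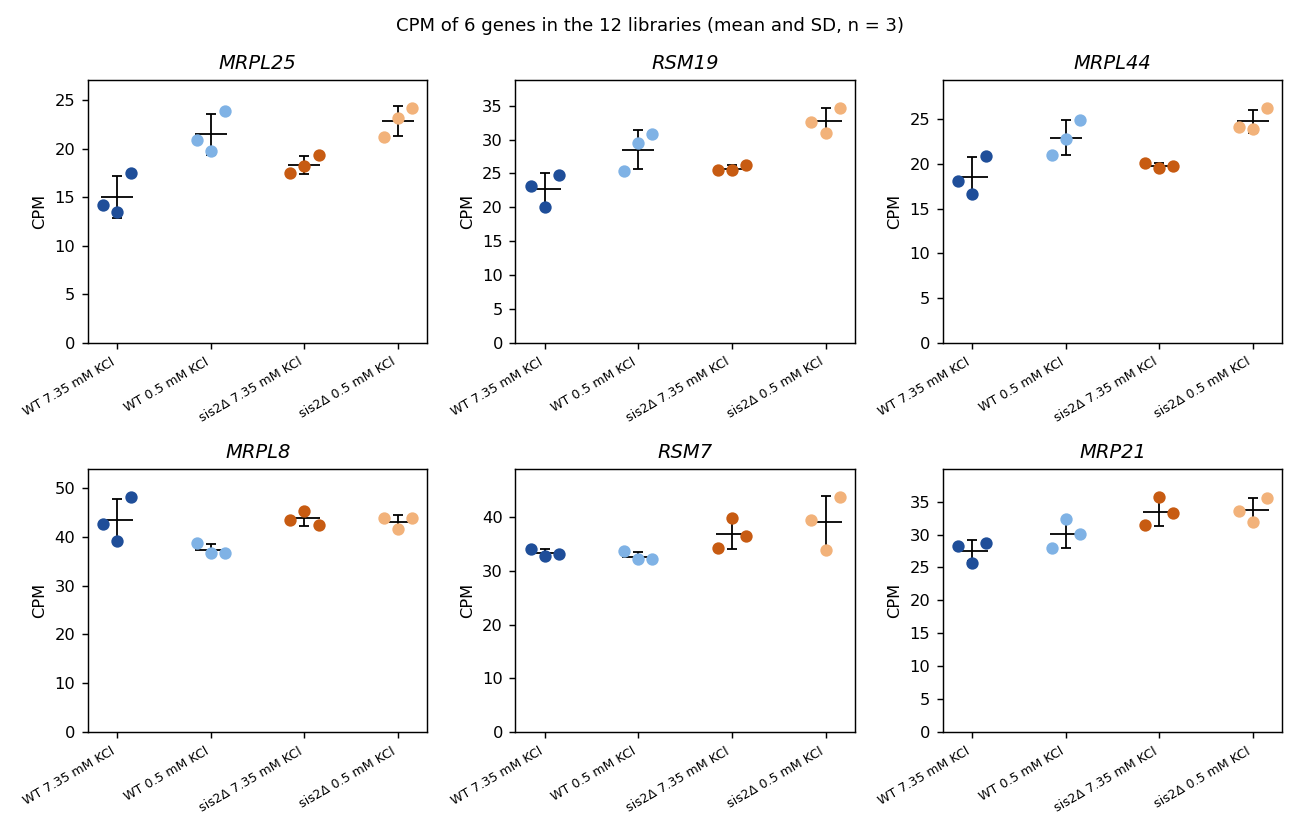
CPM (vertical axis, from 0) of 6 genes in the 12 libraries, by group, with mean and SD of the 3 libraries. MRPL25, RSM19 and MRPL44 lie higher in 0.5 than in 7.35 mM KCl in both strains, MRPL8 lies lower in 0.5 mM KCl in WT, and RSM7 and MRP21 have their highest values in sis2Δ libraries.

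Whether the response to potassium differed between the strains was tested as an interaction. None of the 65 genes passed: 0 were higher and 0 lower in edgeR, with 2 and 2 at an unadjusted p under 0.05 and 0 in DESeq2. Over all genes, 1.7% were called higher and 1.03% lower. The median was 0.00, with 30 of 65 genes above 0. Without WT replicate 2 in 7.35 mM KCl, 41 of 65 were above 0 and 0 were called. MRPL4, the counterpart of L29, had the highest value, 0.28 (SE 0.0993, edgeR adjusted p = 0.153). It had 28.3, 30.1 and 32.4 CPM in WT in standard and 30.6, 24.9 and 29.3 CPM in low potassium, against 28.1, 26.1 and 27.4 CPM and 30.5, 31.1 and 31.1 CPM in sis2Δ. MRPL8 had 0.19 and MRPL28 0.18. RSM24, a mitochondria-specific protein of the small subunit, had the lowest, -0.25 (SE 0.0843, edgeR adjusted p = 0.137), followed by MRPL25 and MRPL35, both at -0.20. The difference in counts of calls between the strains is therefore not shown to be a difference in response. The batch medians were 0.10, -0.20 and 0.01, and so had no common direction.

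Other genes of the mitochondrial translation system were taken as lists. In low potassium, 24.1% of all genes were called higher and 23.2% lower in WT, and 24.2% and 21.7% in sis2Δ. Of 15 genes for mitochondrial ribosomal proteins with other names, 2 were higher and 2 lower in WT in low potassium, with a median log2 fold change of 0.04, and 3 were higher and 1 lower in sis2Δ, with a median of 0.02. All 14 of them that are nuclear carried the Puf3 pattern. The fifteenth is VAR1, the mitochondrially encoded member of the small subunit, which had only 63 to 144 counts per library. Yeast mitochondrial mRNAs lack poly(A) tails, and the libraries were poly(A)-selected. VAR1 had a log2 fold change of -0.29 (SE 0.216, edgeR adjusted p = 0.292) in WT and was lower in sis2Δ in low potassium, with -0.75 (SE 0.214, edgeR adjusted p = 0.00687).

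Of 10 translation factors, 4 were higher in low potassium in each strain and 0 lower, and MEF2, a ribosome-recycling factor, had the highest values, 0.52 (SE 0.0865) in WT and 0.40 (SE 0.0862) in sis2Δ. Of 16 mitochondrial tRNA synthetases and related enzymes, 3 were higher and 1 lower in WT, and 1 and 0 in sis2Δ. The highest was MSF1, for phenylalanine, with 0.46 (SE 0.071) and 0.21 (SE 0.0704). Of 16 activators of the translation of single mitochondrial mRNAs, 3 were higher and 1 lower in WT, and 4 and 0 in sis2Δ. The highest were CBP6 with 0.33 (SE 0.0845) in WT and CBS2 with 0.29 (SE 0.0688) in sis2Δ, both of which act on cytochrome b. Among 14 genes for mitochondrial RNA synthesis, modification and ribosome assembly, 3 were higher and 1 lower in WT, and 0 and 0 in sis2Δ. The highest in WT was MRM1, a ribosomal RNA methyltransferase, with 0.33 (SE 0.0575). In WT, 40% of the factors, 18.8% each of the synthetases and the activators, and 21.4% of the last 14 genes were thus higher. In sis2Δ these shares were 40%, 6.25%, 25% and 0%. Over all genes, 24.1% were called higher in WT and 24.2% in sis2Δ. RPO41, the mitochondrial RNA polymerase, had 0.09 and 0.03, neither past the threshold. Its partner MTF1 was higher in WT, by 0.20 (SE 0.0662, edgeR adjusted p = 0.0154), and had -0.08 in sis2Δ. The transcript of PUF3 itself had 0.09 (SE 0.0965) in WT and 0.21 (SE 0.0972, edgeR adjusted p = 0.0766) in sis2Δ in low potassium, and in sis2Δ against WT it had -0.14 in standard and -0.02 in low potassium, none past the threshold.

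Side by side with these, the 9 nuclear genes for cytochrome c oxidase subunits were all higher in low potassium in both strains, with medians of 0.84 in WT and 0.58 in sis2Δ, and 8 of 9 were higher in sis2Δ in 7.35 mM KCl. Of these 9 genes, 1 carried the Puf3 pattern. The 138 cytosolic ribosomal protein genes had medians of -0.09 in both strains in low potassium, with 4 higher and 29 lower in WT and 5 and 19 in sis2Δ. The medians of the 65 mitochondrial ribosomal protein genes, 0.08 in both strains, lay between those of these 2 lists. The difference between lists was not tested.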

How the data were processed

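The authors deposited expected counts, without normalization, for 7112 features in 12 libraries; 40.1% of the values were whole. The submitters' processing notes name bcl2fastq, cutadapt 2.6, STAR 2.7.6a, featureCounts, Subread 1.6.2 and build R64 without their roles. The annotation and strand setting are not given in the sources used here. Genes overlapping on opposite strands, such as MRPL51 and YPR099C (323 bases) or MRP4 and YHL005C (2 bases), may share reads.

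Counts were rounded, filtered with filterByExpr by group and scaled by TMM in edgeR 4.0.16 (R 4.3.3). All 12 libraries entered 1 quasi-likelihood fit with 4 groups, the covariate of the study's own model. The 5 contrasts were tested with Benjamini-Hochberg adjustment over 6691 genes and a threshold of 0.05. P-values measure the spread between cultures of 1 strain per genotype. Alternatives were DESeq2 1.42.0, its size factors in edgeR, library totals, 2 other low-count filters (none, and at least 10 counts in every library), the 6 libraries compared, a replicate block, member lists without RSM22 or with 15 genes of other names, and each library left out. The script was tested on simulated data.

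Batch and replicate numbers are identical in the labels, so the numbers pair libraries. Deviations from group means had a median correlation of 0.0576 over 18 pairs with the same number (range -0.0996 to 0.279, 5 above 0.1) and -0.0343 over 36 others.

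Members and lists were chosen with earlier results of these data known. Genes named with values are the 3 highest and 3 lowest of each contrast and of the levels. Values are also given for members past the threshold against the median's direction, for VAR1, PUF3, RPO41 and MTF1, and for part of the extremes of each list. MRPL6, MRPL9 and MRPL24 were added as the lowest values among called genes. Other members past the threshold are listed by name, a choice made after their values were seen. Puf3 patterns and coding lengths were read from the RefSeq genome and annotation (R64).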

Additional observations from a re-analysis of the deposited data

How the results depend on the processing

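The median log2 fold change of the 65 genes moved by less than the within-group spread of 0.05 in every alternative run. This spread is of the same order as the medians themselves, 0.07 to 0.09 in the comparisons of 2 groups. The medians are therefore not shown to be stable. Without WT replicate 2, the median of sis2Δ against WT in 7.35 mM KCl went from 0.09 to 0.05. With library totals in place of TMM, 3 genes were higher in sis2Δ in 7.35 mM KCl and 8 higher in low potassium in sis2Δ. With the 15 genes of other names added, 1 gene was lower in sis2Δ in 7.35 mM KCl, 5 lower in low potassium in WT and 1 in sis2Δ. Leaving out 1 library at a time gave 0 to 11 genes higher in sis2Δ in 7.35 mM KCl (0 without WT replicate 2) and 0 to 2 in 0.5 mM KCl. In low potassium it gave 12 to 26 higher and 0 to 3 lower in WT, and 7 to 14 higher in sis2Δ. How many of all genes were called in each alternative run is not given, here or above. These counts therefore do not show whether the family lost calls more than other genes did. The replicate block gave 9 genes higher in sis2Δ in 7.35 mM KCl, 24 higher and 3 lower in low potassium in WT, and 14 higher in sis2Δ, so that MRPL37 lost its call in WT in low potassium and MRPL50 and RSM28 gained one, and no other call changed. In sis2Δ against WT in 0.5 mM KCl, 0 genes were called with all libraries, and between 50 and 64 of the 65 kept their sign with 1 library left out, the fewest without WT replicate 1. Among the genes named with values, MRP4 ranged from -0.094 to 0.026 and MRPL13 from -0.064 to 0.039. The causes were not tested. The median SE of the 65 genes was 0.066 in each comparison of 2 groups, and the smallest log2 difference called was 0.15 (MRPL9 and MRPL24).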

Other observations

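Promoter patterns of known yeast regulators were counted in the family. AAAATTTT, common before genes of cytosolic ribosome assembly, was found in 8.66% of the 6008 stretches of 250 bases before a start codon (both strands searched) and in 1.54% of the 65 genes, in MRPS16 alone. TTACCCG, the letters bound by Reb1, was present in 13.8% of them against 7.02% of all genes, CCAAT, bound by the Hap complex, in 29.2% against 35.4%, GATGAG, also common before ribosome assembly genes, in 15.4% against 17.0%, and CACGTG, bound by Cbf1, in 3.08% against 2.73%. None of these shares was tested.

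Outside the family, the 902 tested genes with the Puf3 pattern had median log2 fold changes of -0.01 in WT and 0.00 in sis2Δ in low potassium, and of 0.00 in sis2Δ against WT at both concentrations. Of these genes, 22.2% were called higher in WT in low potassium and 22.9% in sis2Δ. Over all genes tested, 24.1% were called higher and 23.2% lower in WT, and 24.2% and 21.7% in sis2Δ. Within the family, 51 genes have a C 2 bases before the pattern. In low potassium in WT, 22 of them were higher and 3 lower (median 0.12). Of the 14 others, which include RSM22 without a pattern, 1 was higher and 0 lower (median 0.02). In sis2Δ, 12 of the 51 were higher (median 0.07) and 2 of the 14 (median 0.09), with 0 lower in either. These splits were seen in the data and not tested.

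RSM19 and MRPS12 lie next to each other on chromosome XIV, on the same strand, with 229 bases between their coding sequences. RSM19 was higher in low potassium in both strains. MRPS12 had a log2 fold change of 0.00 in WT and was called higher in sis2Δ, with 0.18 (SE 0.0661, edgeR adjusted p = 0.0298). This call was kept in 8 of the 12 runs with 1 library left out. Neither gene passed the interaction, so a difference between the strains is not shown.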
